A study of Mus musculus with 20 samples.

Results

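The 10 genes described here encode the urea cycle and the first steps of amino acid breakdown of periportal hepatocytes, namely Cps1, Otc, Ass1, Asl, Arg1, Nags, Gls2, Hal, Sds and Sdsl. They were taken from a table of raw RNA-seq counts of mouse liver as the rows whose Ensembl identifiers carry these symbols in GENCODE M21, and 10 of 10 were found among its 21780 genes and 10 of 10 passed the filter on low counts (15522 genes). The livers came from 20 male C57Bl/6J mice, 5 in each of 4 groups, and all 20 mice ate a high fat diet (HFD) with 42% of its energy from fat for 12 weeks from the age of 8 weeks. At the age of 10 weeks each mouse received a single oral gavage: corn oil alone (HFD control), 20 mg/kg Aroclor 1260 (HFD + Aroclor 1260), 20 µg/kg PCB 126 (HFD + PCB 126), or both at these doses (HFD + Aroclor 1260 + PCB 126, called the combined exposure). The study's methods give 10 weeks of PCB exposure after the gavage, whereas the sample labels give 12 weeks of exposure. Aroclor 1260 is a commercial mixture of mostly non-dioxin-like polychlorinated biphenyls, and PCB 126 is a dioxin-like congener that activates the aryl hydrocarbon receptor. The mice were fasted for about 6 h before the livers were taken. No mouse on a normal diet was analyzed here, so that each comparison is within HFD feeding. The samples are whole liver, in which the lobular position of an RNA is not measured and fewer cells of a type cannot be told apart from less RNA per cell.

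Ammonia freed from amino acids is toxic, and the liver turns it into urea in a cycle that starts in the mitochondrion and ends in the cytosol. Hepatocytes near the portal vein, where blood enters the lobule, carry most of this cycle and much of the breakdown of amino acids for glucose, while hepatocytes near the central vein take up the remaining ammonia to make glutamine. Nags makes N-acetylglutamate, without which carbamoyl phosphate synthetase 1 (Cps1) is inactive. Cps1 and ornithine transcarbamylase (Otc) act in the mitochondrion, and argininosuccinate synthase (Ass1), argininosuccinate lyase (Asl) and arginase 1 (Arg1) complete the cycle in the cytosol. Liver-type glutaminase (Gls2), histidine ammonia-lyase (Hal) and serine dehydratase (Sds) release ammonia from glutamine, histidine and serine, and Sdsl is a serine dehydratase-like gene next to Sds. Glucagon, glucocorticoids and protein intake are known to raise many of these transcripts.

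Because PCB 126 acts through the aryl hydrocarbon receptor, the bases just upstream of the transcription start were read for the 4 members with a RefSeq promoter window (GRCm38.p6, all on the plus strand). Capitals mark matches to GCGTG (the core that this receptor binds, shown as CACGC where it lies on the other strand), to CCAAT and to TATAAA on either strand. The stretches begin 200 bases before the RefSeq start. That of Ass1 was cut short because the longer GENCODE gene model begins inside it.
Ass1, chr2:31470070-31470206: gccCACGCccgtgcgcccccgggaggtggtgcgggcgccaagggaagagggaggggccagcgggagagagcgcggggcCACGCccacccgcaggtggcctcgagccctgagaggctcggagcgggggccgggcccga
Hal, chr10:93488568-93488767: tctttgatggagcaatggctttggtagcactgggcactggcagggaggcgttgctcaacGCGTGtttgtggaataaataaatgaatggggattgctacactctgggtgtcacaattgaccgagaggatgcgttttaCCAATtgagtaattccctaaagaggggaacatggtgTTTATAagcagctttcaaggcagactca
Nags, chr11:102145313-102145512: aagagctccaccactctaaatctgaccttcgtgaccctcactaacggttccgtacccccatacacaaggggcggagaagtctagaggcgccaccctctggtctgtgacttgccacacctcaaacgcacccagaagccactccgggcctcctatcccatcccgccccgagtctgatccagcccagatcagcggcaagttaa
Otc, chrX:10252105-10252304: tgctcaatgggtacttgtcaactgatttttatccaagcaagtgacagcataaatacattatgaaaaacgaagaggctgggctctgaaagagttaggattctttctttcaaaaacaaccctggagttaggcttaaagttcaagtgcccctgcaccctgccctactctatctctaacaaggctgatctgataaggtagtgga
GCGTG on either strand was held by the 300-base windows (250 bases before and 50 after the start) of Ass1, at positions -197 and -122 from the start, and of Hal, at position -141, and not by those of Nags and Otc. These 5 letters were held by 32.4% of all 32851 promoter windows, so that such a match is common. CCAAT (37.4% of windows) and TATAAA (13.6%) were found only in Hal among the 4, at -64 and -28. TGACG, the core of the cAMP response element (20.8%), was found only in Nags, at 32 bases past the start, where it is not shown, and neither the full element TGACGTCA (1.79%) nor the C/EBP palindrome TTGCGCAA (0.183%) was found in the 4 windows. The shown stretches differed widely in base composition, from 42.0% GC in Otc and 46.5% in Hal to 58.5% in Nags and 80.3% in Ass1.

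Total counts were 21836506 to 36854887 per library, and the 10 genes held between 1812 counts (Sdsl) and 1148200 counts (Cps1) over the 20 libraries. Together they took 0.420% to 0.693% of a library's counts. The libraries differed in how a gene's level ran with its GC content, read from the exons of its longest GENCODE transcript. This was summarized for each library as a slope, in log2 units per 10 percentage points of GC content, relative to the mean of all libraries. The slope was 0.080 to 0.39 in HFD control, -0.085 to 0.10 in HFD + Aroclor 1260, -0.090 to 0.32 in HFD + PCB 126 and -0.50 to -0.11 in the combined exposure, so that the control and combined libraries did not overlap (difference -0.53, two-sided exact permutation test, p = 0.00794, the smallest that the 252 splits allow). HFD control replicates 1 and 2 had the steepest slopes of their group, 0.39 and 0.28. The members' tests below are therefore given also after a correction for GC content within each library, which by its construction also removes any real difference that runs with GC content. The library numbers in the labels run from group to group, so that the order of libraries cannot be told apart from exposure, and which of the 2 sequencing runs held which library is not given in the sources used here.

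Nags, Asl, Ass1, Sds and Sdsl were lower and Otc was higher in livers of the combined exposure than in HFD control. The fall ranged from 1.30-fold in Ass1 and 1.32-fold in Asl to 1.61-fold in Nags, 1.79-fold in Sds and 2.07-fold in Sdsl, and Otc was 1.27-fold higher. Cps1, Arg1, Gls2 and Hal did not pass the test. The calls covered 6 of 10 genes at an adjusted p under 0.05, 1 higher and 5 lower (edgeR's quasi-likelihood test, Benjamini-Hochberg over 15522 genes), where 32.8% of all tested genes were called, 15.8% higher and 17.0% lower. After correction for GC content 0 of 10 were called by the same test, against 10.3% of all tested genes (534 higher and 1067 lower), and 2 of 10, Gls2 and Sdsl, had an unadjusted p under 0.05, as did 3954 of the 15522 genes. Without HFD control replicates 1 and 2, the control libraries of steepest GC slope, 2 of 10 were called (Ass1 and Sdsl), with 20.7% of all tested genes called, a choice made after the values were seen.

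**Figure D1:**
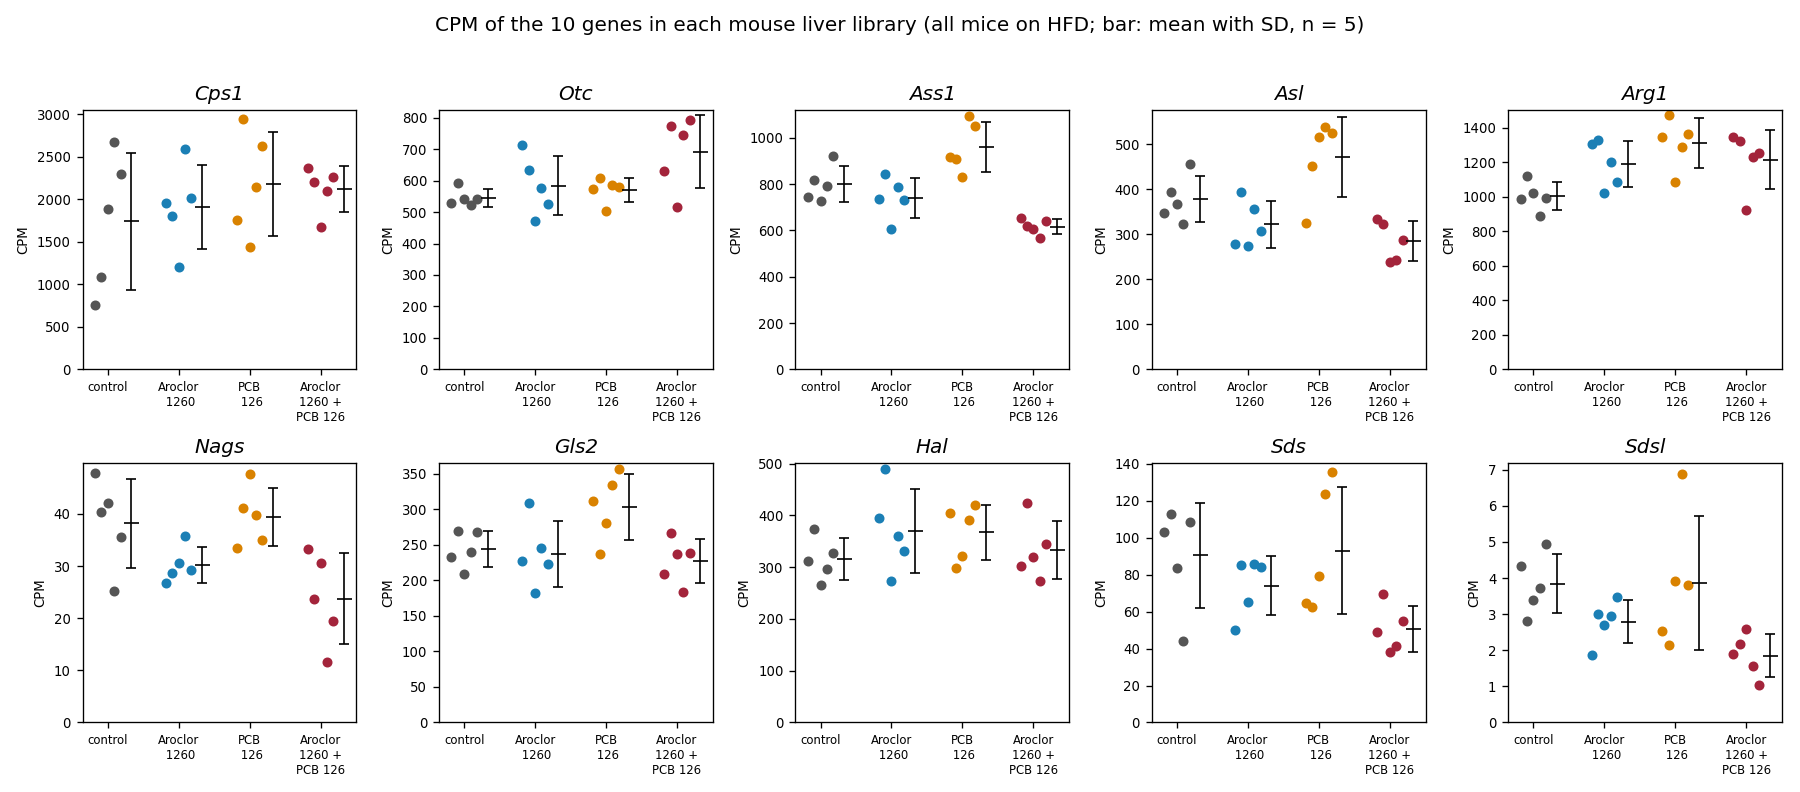
CPM (library-scaled counts, vertical axes from 0) of each of the 10 genes in the 20 libraries, with 1 point per mouse and a bar for the mean and SD of the 5 mice of a group. The combined exposure (red) lies wholly below HFD control (grey) for Ass1 and Sdsl, and 4 of its 5 libraries lie above HFD control for Otc. How many of all tested genes separate in this way was not counted.

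On a scale that divides by exon length (TPM), the levels in HFD control ran from Arg1 (1104 ± 96.4 TPM, SD, n = 5) over Ass1 (814 ± 83.1), Cps1 (767 ± 361), Otc (316 ± 22.8), Asl (192 ± 23.0), Gls2 (173 ± 21.8), Hal (139.8 ± 21.5), Sds (131 ± 41.1) and Nags (33.0 ± 7.25) to Sdsl (6.30 ± 1.31). In this order Cps1 did not differ beyond the SDs from Ass1 or Arg1, and the steps from Asl to Gls2 and from Hal to Sds were also within them, while that from Gls2 to Hal was larger than either SD but smaller than their sum. The step from Otc to Asl and that from Sds to Nags were larger than the SDs. All values below are counts per 1000000 counts of a library (CPM), scaled between libraries by TMM, which compare libraries for 1 gene and not genes with each other.

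Among the mitochondrial members, Nags (chr11:102145513-102149477, plus strand, 4 exons, 59.7% GC), the source of the Cps1 activator, had 47.9, 40.4, 42.1, 25.2 and 35.5 CPM in HFD control replicates 1 to 5. The values were 26.8, 28.6, 30.7, 35.9 and 29.3 CPM with Aroclor 1260 and 33.4, 41.2, 47.7, 39.8 and 35.1 CPM with PCB 126. In the combined exposure they were 33.3, 23.8, 30.7, 11.6 and 19.4 CPM. The lowest 3 combined libraries lay below every control, the other 2 lay within the control range, and replicate 4 was the lowest of all 20. Nags fell in the combined exposure by 0.69 on the log2 scale (SE 0.21, 95% interval -1.13 to -0.25, adjusted p = 0.0159). After correction for GC content the change was -0.15 (SE 0.16, adjusted p = 0.60), with 24.1 to 36.4 CPM in HFD control and 17.1 to 39.0 CPM in the combined exposure.

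Otc (chrX:10252305-10321024, plus strand, 10 exons, 41.1% GC), which joins carbamoyl phosphate to ornithine, had 528, 593, 541, 521 and 540.3 CPM in HFD control. Aroclor 1260 gave 712, 632, 473, 575 and 527 CPM, and PCB 126 gave 573, 609, 504, 585 and 580.1 CPM. The combined exposure gave 631, 772, 518, 746 and 793 CPM. Thus 4 of the 5 combined libraries exceeded all controls, and replicate 3 lay below them. Otc rose by 0.34 on the log2 scale (SE 0.12, 95% interval 0.10 to 0.59, adjusted p = 0.0294), while after correction for GC content its direction turned (-0.10, SE 0.10, adjusted p = 0.60). The call of Otc was lost without either of HFD control replicates 1 and 3 or combined replicates 2, 4 and 5, with adjusted p up to 0.119.

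Cps1 (chr1:67123026-67231259, plus strand, 38 exons, 46.6% GC), the first enzyme of the cycle, had 756, 1088, 1888, 2670.0 and 2295 CPM in HFD control. Its coefficient of variation there, 46.2%, was the largest of the 10 genes. Levels ran from 1206 to 2589.7 CPM with Aroclor 1260, from 1432 to 2937 CPM with PCB 126 and from 1668 to 2362 CPM in the combined exposure. The combined libraries lay within the control range, and the 2 lowest controls were the libraries with the steepest GC slopes. After correction for GC content these 2 controls were still the lowest, at 824 and 1153 CPM. HFD control replicates 3 to 5 then had 2008, 2654 and 2409 CPM. The log2 change in the combined exposure was 0.28 (SE 0.27, 95% interval -0.28 to 0.85, adjusted p = 0.46), 0.10 after correction for GC content (adjusted p = 0.87) and -0.12 without HFD control replicates 1 and 2 (adjusted p = 0.73).

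Of the cytosolic members, Ass1 (chr2:31470207-31520672, plus strand, 16 exons, 54.7% GC), which joins citrulline and aspartate, had 746, 816, 726, 790.0 and 920.4 CPM in HFD control. Aroclor 1260 gave 736, 842, 608, 786 and 729 CPM, while PCB 126 gave 916, 908, 829.9, 1093 and 1051 CPM. With both it had 651, 621, 604, 566 and 641 CPM. All 5 combined libraries lay below all 5 controls and below all 5 libraries of PCB 126 alone, and 2 of the PCB 126 libraries lay above every control. The share of all tested genes with such separation was not counted. Ass1 fell in the combined exposure by 0.38 on the log2 scale (SE 0.10, 95% interval -0.58 to -0.17, adjusted p = 0.00736), and this call was kept in each of 10 fits that left out 1 library (adjusted p up to 0.0232). After correction for GC content the change was -0.088 (SE 0.11, adjusted p = 0.69), and the ranges overlapped at 642 to 871 CPM in HFD control and 627 to 751 CPM in the combined exposure.

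Asl (chr5:130011258-130029247, minus strand, 16 exons, 55.5% GC), which splits argininosuccinate into arginine and fumarate, had 348, 394, 368, 323 and 457 CPM in HFD control. The levels were 279, 395, 275, 357 and 307 CPM with Aroclor 1260 and 325, 451, 517, 538 and 526 CPM with PCB 126. They were 334, 324, 239, 244 and 287 CPM in the combined exposure. Of the combined libraries 3 lay below every control, and 3 libraries of PCB 126 alone lay above every control. Asl fell by 0.41 on the log2 scale in the combined exposure (SE 0.14, 95% interval -0.71 to -0.10, adjusted p = 0.0367), and after correction for GC content the change was -0.062 (SE 0.14, adjusted p = 0.84). Only 4 of 10 fits without 1 library kept the call (adjusted p 0.0230 to 0.102), and it was lost without any 1 of HFD control replicates 2, 3 and 5 and combined replicates 3, 4 and 5.

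Arg1 (chr10:24915221-24927484, minus strand, 8 exons, 47.7% GC), which releases urea, had the highest level per kilobase. It had 986, 1117, 1023, 889 and 995 CPM in HFD control and 1304, 1326, 1019, 1200.2 and 1087 CPM with Aroclor 1260. PCB 126 gave 1344, 1472, 1085, 1285 and 1364 CPM, and the combined exposure gave 1345, 1323, 924, 1227 and 1250.3 CPM. Of the exposed libraries, 3 of Aroclor 1260, 4 of PCB 126 and 4 of the combined exposure lay above every control. No comparison passed the test in edgeR, with log2 differences of 0.24 (SE 0.11, adjusted p = 0.27) for Aroclor 1260, 0.39 (SE 0.11, adjusted p = 0.14) for PCB 126 and 0.28 (SE 0.11, adjusted p = 0.0621) for the combined exposure. With DESeq2 the differences for PCB 126 (0.38, adjusted p = 0.0250, with 2.53% of genes called) and the combined exposure (0.26, adjusted p = 0.0383, with 42.5% of genes called) passed. The combined difference also passed without combined replicate 3 (0.34, edgeR, adjusted p = 0.0168). The direction was kept after correction for GC content, at 0.20, 0.37 and 0.13 in the 3 exposures (edgeR, adjusted p = 0.38, 0.12 and 0.47).

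Among the genes of amino acid breakdown, the pair that handles serine gave the 2 largest falls. Sds (chr5:120476526-120483932, plus strand, 9 exons, 57.4% GC), which turns serine into pyruvate and ammonia, had 103, 113, 83.8, 43.9 and 108 CPM in HFD control. The values were 50.0, 85.4, 65.2, 85.6 and 84.3 CPM with Aroclor 1260 and 64.8, 62.3, 79.1, 124 and 135 CPM with PCB 126. In the combined exposure they were 49.1, 69.3, 38.0, 41.4 and 54.7 CPM. Control replicate 4 stood well below the other 4 controls, and the combined libraries all lay below those 4, with 2 below replicate 4 as well. Sds fell by 0.84 on the log2 scale (SE 0.25, 95% interval -1.37 to -0.31, adjusted p = 0.0156), with -0.36 (SE 0.24, adjusted p = 0.38) after correction for GC content. Its exons share 360 bases with Plbd2 on the opposite strand. How strands were treated in counting is not given in the sources used here.

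Sdsl (chr5:120458186-120472810, minus strand, 9 exons, 60.2% GC) lies 3715 bases from Sds and had the lowest level of the 10 genes. It had 4.34, 2.82, 3.39, 3.73 and 4.94 CPM in HFD control, 1.86, 3.00, 2.69, 2.95 and 3.47 CPM with Aroclor 1260 and 2.53, 2.16, 3.91, 6.89 and 3.80 CPM with PCB 126. The combined exposure gave 1.89, 2.17, 2.59, 1.56 and 1.05 CPM. All 5 combined libraries lay below all 5 controls, a separation not counted over all tested genes, while the PCB 126 group spread from below to above the controls. Sdsl fell by 1.05 on the log2 scale (SE 0.28, 95% interval -1.64 to -0.46, adjusted p = 0.00794), the largest fall of the 10 genes, and by 0.50 (SE 0.24, adjusted p = 0.19) after correction for GC content, when the ranges overlapped (2.36 to 4.32 CPM and 1.44 to 2.81 CPM). The calls of Nags, Sds and Sdsl were kept in 10 of 10 fits without 1 library.

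Gls2 (chr10:128194457-128210004, plus strand, 18 exons, 56.6% GC), the glutaminase of periportal hepatocytes, had 209 to 269.6 CPM in HFD control, 182 to 309 CPM with Aroclor 1260, 238 to 356 CPM with PCB 126 and 184 to 266 CPM in the combined exposure. Of the 5 libraries of PCB 126 alone 4 lay above every control, and 4 combined libraries lay within the control range. The log2 difference was -0.10 (SE 0.13, 95% interval -0.38 to 0.18, adjusted p = 0.61) in the combined exposure and turned to 0.31 (SE 0.14, adjusted p = 0.18) after correction for GC content. With PCB 126 it was 0.32 (SE 0.14, adjusted p = 0.29), and 0.40 (adjusted p = 0.21) after correction. Gls2 shares 97 exonic bases with Spryd4 on the opposite strand.

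Hal (chr10:93488768-93519304, plus strand, 20 exons, 48.6% GC), the first enzyme of histidine breakdown, had 265 to 375 CPM in HFD control, 273 to 489.5 CPM with Aroclor 1260, 298 to 419 CPM with PCB 126 and 274 to 423 CPM in the combined exposure. The 4 ranges overlapped. Its log2 differences were 0.23 (SE 0.15, adjusted p = 0.40), 0.22 (SE 0.15, adjusted p = 0.50) and 0.080 (SE 0.15, 95% interval -0.23 to 0.39, adjusted p = 0.73) in the 3 exposures, and 0.21, 0.21 and -0.011 after correction for GC content (adjusted p = 0.52, 0.52 and 0.98). The promoter of Hal is the other one with a GCGTG match.

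**Figure D2:**
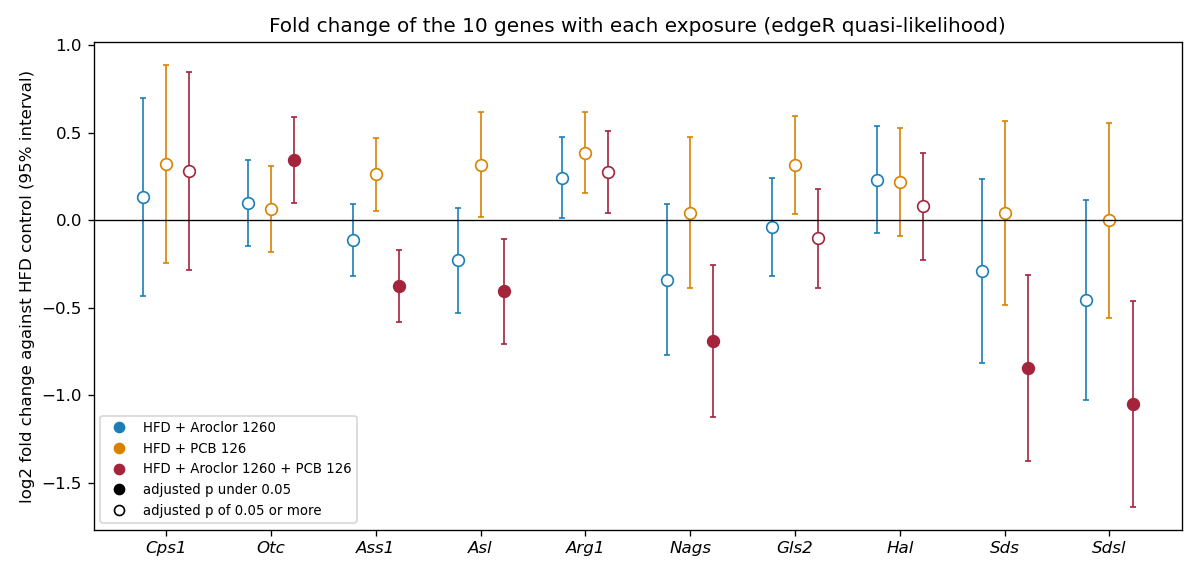
Log2 fold change against HFD control (vertical axis, with 95% intervals) of the 10 genes for Aroclor 1260 (blue), PCB 126 (orange) and the combined exposure (red), with filled points where the adjusted p was under 0.05. The 6 filled points are all of the combined exposure, 5 of them below 0, and 9 of the 10 points for PCB 126 alone lie above 0. Of all 15522 tested genes 7298 lay above 0 with PCB 126 alone.

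No member passed edgeR's threshold in either single exposure. With Aroclor 1260 the log2 differences ranged from -0.46 (Sdsl) to 0.24 (Arg1), 6 below 0 and 4 above, with 0 of 10 genes called and 1 of 10 at an unadjusted p under 0.05 (Arg1). Over all tested genes this comparison called 0 genes (0.0%) in edgeR, with 2677 at an unadjusted p under 0.05, and 135 genes in DESeq2, none of them a member. With the correction for GC content 0 of 10 members and 0.0% of all genes were called, with 0 members and 2162 genes at an unadjusted p under 0.05. With PCB 126 the differences ranged from -0.00028 (Sdsl) to 0.39 (Arg1), 9 above 0 and 1 below, with a median of 0.24 against -0.018 over all tested genes. Over all tested genes 7298 lay above 0 and 8221 below. On the related lists described below, 14 of 20 genes of nitrogen supply, 26 of 36 of other amino acid breakdown and 6 of 14 regulators lay above 0. So did 5 of 10 other periportal and 10 of 11 pericentral genes. Again 0 of 10 members were called in edgeR (0.116% of all tested genes, 18 genes), while 4 had an unadjusted p under 0.05: Ass1 (0.26, SE 0.10), Asl (0.32, SE 0.14), Arg1 and Gls2, beside 2280 of the 15522 genes. With the correction for GC content 0 of 10 were called (0.303% of all tested genes), and the same 4 had an unadjusted p under 0.05, beside 2288 genes. DESeq2 called 1 of 10, Arg1, and 320 genes in all. In the self-test on simulated counts, 79.5% (Aroclor 1260) and 76.5% (PCB 126) of genes changed by 1 on the log2 scale were recovered. Those counts held 200 changed genes and no differences in GC slope between libraries, and smaller changes were not tested. These shares therefore do not carry over to the measured single exposures, where few genes passed in edgeR. Arg1 with PCB 126, for example, had an unadjusted p of 0.00238 in edgeR's test and an adjusted p of 0.14.

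In the combined exposure, the members' changes split by GC content. The 4 members under 50% GC (Otc, Cps1, Arg1 and Hal) had log2 differences of 0.080 to 0.34, and the 6 members over 50% GC had differences of -0.10 to -1.05. The same held over all genes of at least 1 CPM. Genes of 40 to 45% GC had a median of 0.37, with 49.9% called higher, and genes of 55 to 60% GC had a median of -0.53 (quartiles -0.73 and -0.32), with 60.4% called lower. At 60% GC or more the median was -0.79, with 78.3% called lower. Set against genes of like GC content, Otc, Cps1, Arg1, Hal, Ass1, Asl and Nags lay within the quartiles, Sds and Sdsl lay below the lower quartile of their bins (-0.73 and -0.98), and Gls2 lay above the upper quartile of its bin (-0.32). This is a description of where the members fall, and the part of GC content in their calls was not tested beyond the correction.

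**Figure D3:**
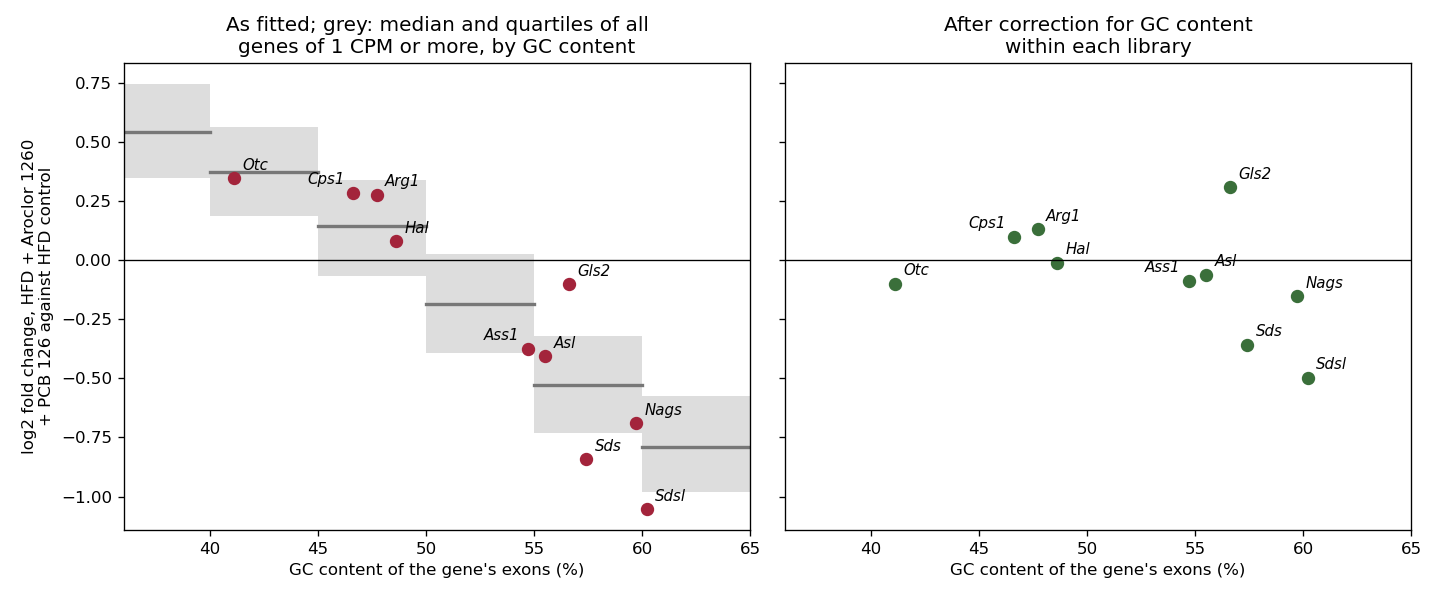
Log2 fold change of the combined exposure against HFD control (vertical axes) by GC content of the exons of each gene's longest transcript (horizontal axes, %), before correction (left, red) and after correction for GC content (right, green). Grey steps give the median and quartiles of all genes of at least 1 CPM in each band of GC content. On the left 7 members lie within the grey quartiles, Sds and Sdsl lie below them and Gls2 lies above, and on the right Sdsl (-0.50), Sds (-0.36) and Gls2 (0.31) are farthest from 0.

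The combined exposure was also set against each single exposure, which asks what the second compound added. Against PCB 126 alone, 6 of 10 members were called, all lower (16.7% of all tested genes, 5.64% higher and 11.0% lower). They were Ass1 (-0.64, SE 0.10, adjusted p = 0.0136), Asl (-0.72, SE 0.15, adjusted p = 0.0136), Nags (-0.73, SE 0.21, adjusted p = 0.0264), Gls2 (-0.42, SE 0.14, adjusted p = 0.0397), Sds (-0.88, SE 0.25, adjusted p = 0.0274) and Sdsl (-1.05, SE 0.28, adjusted p = 0.0217). The ranges of the 2 groups did not overlap for Ass1 and for Nags, whose highest combined library (33.3 CPM) lay just under the lowest PCB 126 library (33.4 CPM). The share of all tested genes without overlap was not counted. After correction for GC content 0 of the 10 were called (0.979% of all tested genes), with 6 at an unadjusted p under 0.05 (3159 of all genes), and the nearest were Ass1 (-0.41, SE 0.11, adjusted p = 0.0661) and Asl (-0.44, SE 0.14, adjusted p = 0.0944). The count fell to 1 without PCB 126 replicate 3, to 2 without PCB 126 replicate 4 or combined replicate 5, and to 3 without combined replicate 4, while the calls over all genes fell from 2589 to 4, 288, 269 and 954 in these 4 fits. PCB 126 replicates 3 and 4 had the steepest GC slopes of their group (0.32 and 0.22). Against Aroclor 1260 alone 0 of 10 were called (0.412% of all tested genes), with Ass1 (-0.26), Sds (-0.55) and Sdsl (-0.60) at an unadjusted p under 0.05, beside 3639 of the 15522 genes. With the correction for GC content 0 were called (0.0515% of all tested genes) and 0 members, beside 1933 genes, had an unadjusted p under 0.05. These comparisons share the combined libraries with that against HFD control.

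The interaction asks whether the combined exposure differed, in log2 units, from both single exposures added together. No member was called, as no gene was over the whole table (0.0%, edgeR), with 1846 genes at an unadjusted p under 0.05 and 1 gene called by DESeq2. All members except Otc (0.18) had an estimate below 0, as did 7797 of the 15522 tested genes. On the related lists described below, so did 14 of 20 genes of nitrogen supply, 29 of 36 of other amino acid breakdown and 9 of 14 regulators. So did 9 of 10 other periportal and 9 of 11 pericentral genes. At an unadjusted p under 0.05 were 3 members, Ass1 (-0.53, SE 0.14, adjusted p = 0.28), Asl (-0.50, SE 0.20, adjusted p = 0.36) and Arg1 (-0.35, SE 0.16, adjusted p = 0.39). With the correction for GC content these were -0.41, -0.34 and -0.44 (adjusted p = 0.35, 0.53 and 0.31). For Ass1 the single exposures gave -0.11 (Aroclor 1260) and 0.26 (PCB 126), beside -0.38 with both.

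The other genes of these pathways were read from 5 fixed lists. Of 20 genes that feed the cycle or carry its nitrogen and intermediates, 4 rose and 2 fell in the combined exposure, 6 of 20 where 32.8% of all tested genes were called (median 0.14, against -0.00096 over all tested genes). Slc25a22, a mitochondrial glutamate carrier, fell from 181 ± 43.5 CPM in HFD control to 66.6 ± 15.5 CPM (SD, n = 5), a log2 change of -1.44 (SE 0.21, adjusted p = 0.000505), and stayed past the threshold after correction for GC content (-0.98, adjusted p = 0.00462). Gpt2, the mitochondrial alanine aminotransferase, rose from 704 ± 114 to 937 ± 70.9 CPM (0.41, SE 0.11, adjusted p = 0.00653, and 0.46 after correction, adjusted p = 0.0119). The glutamine transporter Slc38a3 (-0.45) was called only without the correction.

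Of 36 tested genes of the breakdown of other amino acids (37 listed, Tdh not passing the count filter), 5 rose and 11 fell in the combined exposure, 16 of 36 beside the same 32.8% (median -0.094). The largest changes were those of Prodh2, of hydroxyproline breakdown (-1.01, SE 0.21, adjusted p = 0.00189), Bckdha, a subunit of the branched-chain keto acid dehydrogenase (-0.98, SE 0.24, adjusted p = 0.00479), the asparaginase gene Aspg (-0.90, SE 0.23, adjusted p = 0.00608) and Agxt (-0.89, SE 0.12, adjusted p = 0.000487), which clears glyoxylate. Agxt fell from 275 ± 5.79 to 149 ± 15.9 CPM. With the correction 6 genes of this list were called, 0 higher and 6 lower, beside 10.3% of all tested genes (534 higher and 1067 lower). Among the 6 were Agxt (-0.50, adjusted p = 0.00699) and Prodh2 (-0.52, adjusted p = 0.0313). Named after their values were seen, Haao (-0.71, adjusted p = 0.0164) and Kynu (-0.55, adjusted p = 0.00331, from -0.12 before correction, where it was not called) of the kynurenine pathway were also among them.

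On the lists of other periportal and of pericentral genes, none was called lower in the combined exposure before correction for GC content. Over all tested genes 32.8% were called there, 15.8% higher and 17.0% lower. Of 10 other periportal genes 2 rose and 0 fell, G6pc, the last enzyme of glucose release (0.82, SE 0.31, adjusted p = 0.0497), and Hsd17b13 (0.28, SE 0.091, adjusted p = 0.0234), with a list median of -0.067. Of 11 pericentral genes 3 rose and 0 fell, Tbx3 (0.54), Lgr5 (0.45) and the glutamate transporter Slc1a2 (0.43), with a median of 0.027. With the correction 0 of the periportal genes and 2 of the pericentral genes were called, beside 10.3% of all tested genes. The 2 were Tbx3 (0.80, adjusted p = 0.0143) and, named after its values were seen, Oat (-0.47, adjusted p = 0.0422), the ornithine aminotransferase. Whether the lobular pattern of any RNA changed cannot be read from whole liver.

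Among 14 regulators of these genes, 4 rose and 5 fell in the combined exposure, 9 of 14 beside 32.8% of all tested genes (median -0.33). Ppargc1a, a coactivator of fasting responses, rose from 5.31 ± 0.555 to 10.4 ± 0.969 CPM (0.97, SE 0.14, adjusted p = 0.000505, and 0.55 after correction, adjusted p = 0.0127). The glucagon receptor gene Gcgr fell from 239 ± 51.9 to 128 ± 33.5 CPM (-0.90, SE 0.19, adjusted p = 0.00227, and -0.44 after correction, adjusted p = 0.0375). Foxa2 (-0.96) and the glucocorticoid receptor gene Nr3c1 (0.71) were called only without the correction. With it 5 of 14 regulators were called (10.3% of all tested genes), 3 higher and 2 lower, and besides Ppargc1a and Gcgr these were, named after their values were seen, Cebpb (0.71), Cebpa (0.32, which turned from -0.32) and Sirt3 (-0.54).

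**Figure D4:**
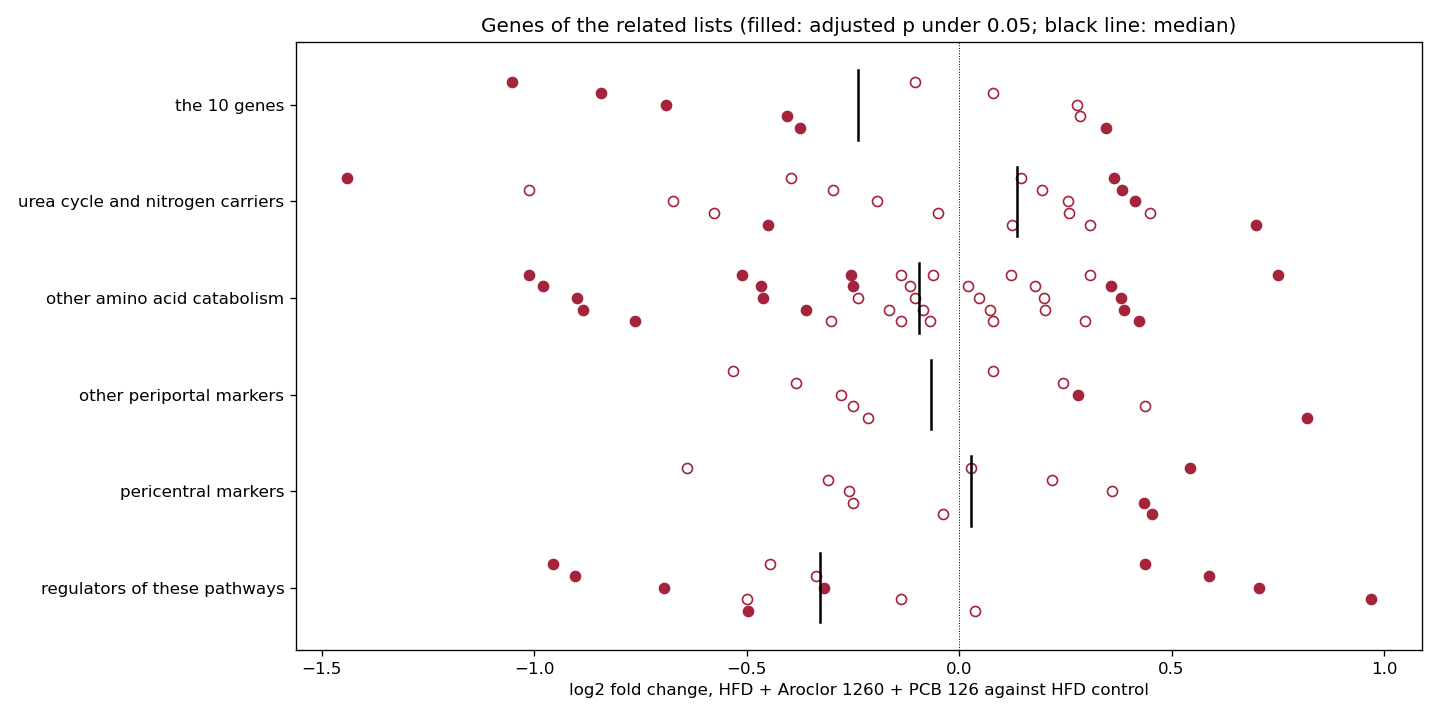
Log2 fold change of the combined exposure against HFD control (horizontal axis) for the 10 genes and each gene of the 5 related lists (rows), with filled points where the adjusted p was under 0.05 and a black line at each median. Called genes lie on both sides of 0 in each row except the 2 lists of zonation markers, where the 5 filled points are all above 0.

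In the single exposures none of the 5 lists had a called gene, of 20, 36, 10, 11 and 14 tested, before or after correction for GC content. Over all tested genes 0.0% were called with Aroclor 1260 and 0.116% with PCB 126, and 0.0% and 0.303% after correction. With Aroclor 1260 the lowest unadjusted p values of each list belonged to Gpt2 (0.36) and Slc38a4 (0.28), to Agxt (-0.33) and Dbt (0.40), to Aldh1b1 (0.54) and Ctsc (0.53), to Lgr5 (0.40) and Oat (-0.13), and to Ppargc1a (0.67) and Nr3c1 (0.47), as log2 differences. With PCB 126, among the genes reported here, they belonged to Slc25a12 (0.36) and Gpt2 (0.39), to Dbt (0.56), to G6pc (0.78) and Aldh1b1 (0.35), to Slc1a2 (0.50) and Tbx3 (0.51), and to Ppargc1a (0.63) and Hnf4a (-0.54). Slc1a2 and Ppargc1a came nearest to the threshold there (adjusted p = 0.0548 for both). The 3 comparisons share the control libraries.

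Markers of liver cell types were read as a check on the tissue. In the combined exposure against HFD control, 32.8% of all tested genes were called, and 10.3% after correction for GC content. Hepatocyte markers summed to 72791 to 103260.0 CPM, and their sums overlapped between HFD control (81979.8 to 89858 CPM) and the combined exposure (73219 to 103260.0 CPM), where 3 of 7 were called lower (Apoa1, Ttr and Serpina1c, of which Ttr was called after correction for GC content). Alb alone had a mean of 63441 CPM in HFD control and 71216 CPM in the combined exposure, and so made up most of these sums. The hepatocyte list also holds the member Cps1. The stellate cell list summed to 271 to 346 CPM in the combined exposure and 135 to 265 CPM in HFD control, without overlap, with 3 of 5 called higher and 1 lower (1 called after correction for GC content). These sums were not corrected for GC content, and the median log2 change of the list was 0.45 before and 0.021 after correction. Pancreatic acinar markers summed to 10.6 to 14.5 CPM in the combined exposure and 14.8 to 22.1 CPM in HFD control, also without overlap, with 1 of 3 tested genes called lower, Cela1, and Cpa1 at 0 in HFD control. Kupffer cell and macrophage (1 of 6 higher), sinusoidal endothelium (1 of 5 lower) and lymphocyte and neutrophil lists (1 of 5 higher) had 1 call each, and the cholangiocyte, erythroid and adipocyte lists had 0 of 5, 0 of 5 and 0 of 4. Of the calls in these last 7 lists, that of Stab2 in sinusoidal endothelium was the one present after correction. For these 6 lists the summed levels of HFD control and the combined exposure overlapped. The part of cell makeup in the members' changes was not tested.

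As a description of which genes ran together, the 3 closest patterns to each member were found over the 20 libraries, among 11342 genes of at least 1 CPM, by Pearson's r of log2 CPM. The libraries share diet, depth differences and GC slopes, so that these values carry no p. Ass1 ran closest with Asl (r = 0.86), Gls2 (r = 0.80) and Gnmt, the glycine methyltransferase (r = 0.79). Asl ran closest with Hpd, of tyrosine breakdown (r = 0.93), Gnmt (r = 0.87) and Ass1. Gls2 ran with Ass1, Hal (r = 0.78) and Pla1a (r = 0.77), and Hal with Gls2, Rassf3 (r = 0.77) and Amdhd1, the third enzyme of histidine breakdown (r = 0.68).

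For the other members, Cps1 ran closest with Aass, of lysine breakdown (r = 0.90), Larp4 (r = 0.89) and 8030462N17Rik (r = 0.89). Otc ran with Atg3 (r = 0.92), Timm21 (r = 0.91) and Ugp2 (r = 0.89), and Arg1 with Adk (r = 0.86), Rfc1 (r = 0.84) and Adhfe1 (r = 0.82). Nags ran with Hpn (r = 0.97), Rnh1 (r = 0.96) and Pcif1 (r = 0.96), whose longest transcripts hold 59.3%, 53.8% and 56.9% GC. Sds ran with Etnk2 (r = 0.86), Mfsd2a (r = 0.85) and Slc25a47 (r = 0.84), and Sdsl with U2af2 (r = 0.87), Prmt1 (r = 0.87) and Aprt (r = 0.87). Within the 10 genes, Otc and Sdsl ran most strongly against each other (r = -0.69), as did Otc and Nags (r = -0.64), the pairs farthest apart in GC content, whereas Otc and Arg1 ran together (r = 0.64). Sds and Sdsl, the neighbors on chromosome 5, had r = 0.68.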

How the data were processed

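RNA-seq libraries of 20 mouse livers were analyzed. The values used are unnormalized read counts for each Ensembl gene, deposited as 1 table. Per the labels and the submitters' processing notes, stranded poly(A) libraries were made and the tools were FastQC 0.10.1, STAR 2.6 and HTSeq 0.10.0 on mm10 (GRCm38.p6). The strand setting and annotation release are not given in the sources used here, and gene models were taken from GENCODE M21 (GRCm38). For PCB 126 replicate 2, whose label holds 2 numbers, the sample title was followed.

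Genes with at least 10 counts in all (15522) were scaled by TMM and tested with edgeR 4.0.16 in R 4.3.3 (two-sided quasi-likelihood test, 1 coefficient per group, 16 residual degrees of freedom, Benjamini-Hochberg over all tested genes, threshold 0.05). Standard errors came from the F statistic and intervals from the t distribution at 95%. The p-values set a difference against the spread between mice within groups, pooled over the 4 groups of 5. The GC correction subtracted a spline (6 degrees of freedom) of each library's deviation on exon GC content. GC content was that of the longest GENCODE transcript of a gene. CPM are counts scaled by library size and TMM factor, and TPM used the union of a gene's exons. DESeq2 1.42.0 and the settings in the closing section were alternatives.

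The 10 genes, the 5 related lists and the 9 cell type lists were chosen with earlier results of these data known. Named list genes were the called genes of largest change (at most 4 per list and comparison), or the 2 of lowest p where under 2 were called. The values of 2 listed genes are not reported here. Listed symbols Ca5a and Tf were matched as Car5a and Trf through RefSeq. On counts simulated from these libraries with 200 genes changed by 1 on the log2 scale, 79.5% (Aroclor 1260), 76.5% (PCB 126) and 83.5% (combined) were recovered with 7, 8 and 6 false calls. Counts of the 40 pairs of mice of a group differed by more than sampling noise (chi-square over its degrees of freedom at least 19.7). No column of the table was left out.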

Additional observations from a re-analysis of the deposited data

Results flagged for a closer look

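Over the 40 sets of 5 libraries (10 genes in 4 groups), 2 held a library that stood apart from the other 4 by Dixon's test, about what chance gives at 1 in 20. Otc in HFD control replicate 2 had 593 CPM, where the other 4 controls had 521 to 541 CPM. Arg1 in combined replicate 3 had 924 CPM, where the other 4 had 1227 to 1345 CPM.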

How the results depend on the processing

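In the combined exposure against HFD control, 6 members were called as reported, 7 with DESeq2, the 1 FPKM filter or the replicate block, 4 when only the groups compared were fitted, and 4 to 6 without 1 library. Over all tested genes 5089 of 15522 were called as reported and 5620 of 13220 with DESeq2. The 1 FPKM filter called 4705 of 8995, the replicate block 5292 of 15522 and only the groups compared 4183 of 15050. After correction for GC content 0 members were called (also 0 with the replicate block or with length added). With the GC slope as a covariate 0 were called. Without HFD control replicates 1 and 2, a setting chosen after seeing the data, 2 were. Against PCB 126 the 6 calls became 0, 1 (with the replicate block, Ass1) and 0 in the 3 GC corrections. Over all genes 152, 508 and 243 were called in these 3 corrections. The calls of members were 0 with the covariate, where no gene was called, and 1 to 7 without 1 library. For PCB 126 against HFD control, 0 became 1 with DESeq2. Of the 5 related lists, 36 genes called in the combined exposure became 15, 18 and 13 in the 3 GC corrections, 0 with the covariate, 20 without the 2 control libraries and 25 to 38 without 1 library. With Aroclor 1260, 0 became 1 with DESeq2 and 1 with the replicate block. With PCB 126, 0 became 6 (DESeq2), 2 (1 FPKM filter), 2 (replicate block), 3 (covariate) and 2 (without the 2 control libraries), and 0 to 2 without 1 library.

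Directions turned as follows, as log2 differences, GC corrections being given plain, with the replicate block and with length. In the combined exposure against HFD control these were Gls2 (0.31, 0.31, 0.30), Hal (-0.011, -0.010, -0.014) and Otc (-0.099, -0.100, -0.078). With the covariate they were Arg1 (-0.041), Cps1 (-0.81), Nags (0.35) and Otc (-0.084), and without the 2 control libraries Cps1 (-0.12). Without 1 library Hal ran from -0.021 to 0.13. For Aroclor 1260 they were Ass1 (0.00059 plain, 0.0074 with length), Gls2 (0.12, 0.11, 0.11), Otc (-0.098, -0.100, -0.089, and -0.077 with the covariate), Cps1 (-0.28 with the covariate, -0.27 without the 2 control libraries) and Nags (0.12 with the covariate). Without 1 library Cps1 ran from -0.055 to 0.34 and Gls2 from -0.15 to 0.044. For PCB 126 they were Otc (-0.051, -0.043, -0.043, and -0.033 with the covariate), Cps1 (-0.077 without the 2 control libraries) and Sdsl, reported at -0.00028 (0.0032 with RLE scaling, 0.0036 with DESeq2, 0.0079 with no filter, 0.0094 with only the groups compared, 0.086, 0.053 and 0.092 in the GC corrections, 0.19 with the covariate). Without 1 library Nags ran from -0.075 to 0.14, Sds from -0.13 to 0.15 and Sdsl from -0.31 to 0.15. Against PCB 126 the combined exposure gave Otc (-0.049, -0.056, -0.035, and -0.051 with the covariate), Nags (0.033 with the covariate) and Cps1 (0.0026 with the 1 FPKM filter, -0.16 to 0.091 without 1 library), and against Aroclor 1260 it gave Sdsl (0.018 with the covariate). The cause of these turns was not tested.

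Over all genes, 5089 calls in the combined exposure (2454 higher, 2635 lower) became 1601, 1768 and 1625 in the GC corrections, 333 with the covariate and 3194 without the 2 control libraries. The 18 calls of PCB 126 became 320 with DESeq2, 101 with the block, 680 with the covariate, 47 with the 1 FPKM filter and 225 without the 2 control libraries. The 0 of Aroclor 1260 became 135 with DESeq2, 26 with the block and 445 with the covariate. Against Aroclor 1260 the 64 calls became 1343, 475 and, after correction for GC content, 8, and against PCB 126 the 2589 became 152. Without 1 library the counts ran from 0 (without any 1 of Aroclor 1260 replicates 3 to 5 or combined replicates 2, 4 and 5) to 1036 (without combined replicate 3) against Aroclor 1260, from 4 (without PCB 126 replicate 3) to 3416 (without PCB 126 replicate 1) against PCB 126, from 3894 to 5679 for the combined exposure and from 4 to 127 for PCB 126 against HFD control. The replicate numbers were not taken to pair mice: of 30 same-numbered pairs 13 had a correlation of deviations over 0.1 (-0.26 to 0.74, median 0.050, against -0.012 for other pairs).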
